A study of Homo sapiens with 2 samples.

Results

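The genes described here encode the ligands, receptors, SMAD proteins and closest regulators of the TGF-β and BMP pathway. They were matched by gene symbol, and 62 of the 50868 genes in the deposited table matched. Of these, 44 were measured, which means that the larger of the 2 libraries reached 1 CPM (counts scaled to library size), and they are set beside the 14686 genes of the table that were measured by the same rule.

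TGF-β family ligands are secreted dimers that bring together type II and type I receptor kinases at the cell surface. The type I receptor then phosphorylates receptor-regulated SMADs, which join SMAD4 and enter the nucleus: TGF-β and activin receptors act mainly through SMAD2 and SMAD3, BMP receptors mainly through SMAD1, SMAD5 and SMAD9. In the liver, TGF-β is known as a brake on hepatocyte growth and a driver of fibrosis, and BMP6 as the signal that sets hepcidin and so iron uptake, while the ID genes and SMAD6 are among the most direct targets of BMP signalling.

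RNA sequencing was carried out on 2 cultures labelled HepG2, a human liver cancer line, with 1 library per group. The parental culture had no drug. The resistant culture was labelled as sorafenib resistant and treated with sorafenib, a multikinase inhibitor used against liver cancer, and had been selected from 2.5 µM upwards in steps of 0.5 µM to 7 µM. Both were grown in DMEM with fetal bovine serum. Whether sorafenib was in the medium at harvest and whether the resistant cells are 1 clone or a pool is not stated in the labels, so selection, drug exposure and culture history cannot be told apart. Below, parental and resistant stand for the libraries with these labels.

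The parental library held 18067146 gene counts and the resistant library 16811907. The liver identity given by the label was not seen in the defining markers: of 14 hepatocyte markers, 0 were measured, 12 had 0 counts in both libraries, and their sum came to 3 parental and 4 resistant counts. ALB and AFP were among those at 0. Of the markers of other cell types, 9 of 13 fibroblast and stellate identifiers were measured, with a summed level of 432 CPM (parental) and 447 CPM (resistant). Most of this sum came from COL3A1 (217 and 195 CPM) and COL1A1 (142 and 156 CPM), while COL1A2 and PDGFRA were at 0. Of the 9, 6 had the larger CPM in the resistant library and 3 in the parental one. LUM had the largest ratio of these 9 (5.13 and 12.9 CPM). Of 9 endothelial markers 3 were measured (3.81 and 6.68 CPM in all), of 11 macrophage and leukocyte markers 2 (15.5 and 23.3 CPM), and of 7 cholangiocyte markers 4 (1911 and 2539 CPM, nearly all from KRT7). The part of these differences in the results below was not tested. With 1 library per group there is no replicate and no test. Each ratio is given with a 95% interval that covers counting error only, so it compares these libraries and not the conditions.

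Sequence before the transcription start is shown for 4 genes of the family that the results turn on: ID1 and SMAD6, BMP targets that were lower in the resistant library, ACVR1B, the receptor with the lowest ratio, and BMP6, the abundant BMP ligand with the higher ratio. Capitals mark GTCTAGAC, the palindrome bound by SMAD3 and SMAD4, and GGCGCC and GGAGCC, GC-rich elements described for BMP-regulated SMADs, each searched on both strands (GGAGCC reads GGCTCC on the other strand). The sequences are from RefSeq on GRCh38.p14, plus strand, 5′ to 3′, beginning 250 bases before the RefSeq start and ending before the first exonic base or, for SMAD6, with the last match.

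ID1, chr20:31605039-31605282: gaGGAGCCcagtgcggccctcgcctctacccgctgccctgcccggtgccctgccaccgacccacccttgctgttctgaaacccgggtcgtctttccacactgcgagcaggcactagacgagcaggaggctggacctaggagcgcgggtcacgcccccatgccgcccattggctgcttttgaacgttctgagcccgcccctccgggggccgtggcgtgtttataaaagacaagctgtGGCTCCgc
SMAD6, chr15:66701986-66702231: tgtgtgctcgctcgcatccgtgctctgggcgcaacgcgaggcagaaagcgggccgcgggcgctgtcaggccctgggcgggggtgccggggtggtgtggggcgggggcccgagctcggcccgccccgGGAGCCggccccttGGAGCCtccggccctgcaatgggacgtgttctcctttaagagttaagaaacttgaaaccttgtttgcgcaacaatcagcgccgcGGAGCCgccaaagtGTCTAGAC
ACVR1B, chr12:51951449-51951666: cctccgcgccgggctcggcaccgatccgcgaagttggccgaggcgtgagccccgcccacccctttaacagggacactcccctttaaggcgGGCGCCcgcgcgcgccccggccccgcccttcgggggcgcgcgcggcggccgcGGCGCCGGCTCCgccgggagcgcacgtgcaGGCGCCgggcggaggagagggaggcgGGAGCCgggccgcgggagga
BMP6, chr6:7725849-7726098: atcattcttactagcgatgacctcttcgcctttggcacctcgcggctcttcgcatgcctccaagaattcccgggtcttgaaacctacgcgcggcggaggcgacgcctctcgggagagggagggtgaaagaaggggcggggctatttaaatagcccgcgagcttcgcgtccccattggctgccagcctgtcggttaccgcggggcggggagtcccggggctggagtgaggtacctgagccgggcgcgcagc

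The SMAD6 stretch held the palindrome GTCTAGAC, with its first base 12 bases before the start, and 3 copies of GGAGCC. Among the 53 genes of the family with a RefSeq window, SMAD6 was the 1 gene with the palindrome, which stood in 0.182% of all 35116 windows of the same length. The ID1 stretch held GGAGCC in each orientation, the nearer copy 14 bases before the start. The ACVR1B stretch was the richest in GGCGCC, with 3 copies in the printed bases and 4 in all with the exonic bases that follow, while the BMP6 stretch held none of the marked elements. The RefSeq start of BMP6 lies 698 bases before the start of the gene in the deposited table. GGAGCC was found in 26 of the 53 windows of the family, against 30.6% of all windows, and GGCGCC in 13 of 53, against 16.4%. The short SMAD-binding box CAGAC was found in 18 of 53, against 38% of all windows. These are matches of letters and were not examined for binding.

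Differences between the libraries in this family were few in number and mostly small. On a log2 ratio of CPM + 1, resistant over parental, 1 gene was past 2-fold higher (FST, 2.27% of the 44 measured genes, against 1.31% of all measured genes) and 1 past 2-fold lower (ACVR1B, 2.27% against 0.994%), together 4.55% against 2.30%. At 1.5-fold, 4 genes were higher (FST, NOG, TGFB2 and GREM1, 9.09% against 4.84%) and 3 lower (ACVR1B, SMAD9 and ID2, 6.82% against 3.81%), together 15.9% against 8.65%. The median log2 ratio of the 44 genes was -0.09, with 18 positive and 26 negative, beside a median of -0.0018 over all measured genes. The middle 50% of the family lay between -0.18 and 0.11, close to the -0.15 to 0.16 of all measured genes. The 1.5-fold rule lies at 0.58 on this scale. On the higher side the nearest gene inside it was GREM1 (log2 ratio 0.70) and the nearest outside BMP6 (0.57). On the lower side the nearest inside was ID2 (-0.69) and the nearest outside ID1 (-0.43), which was well short of the rule.

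**Figure D1:**
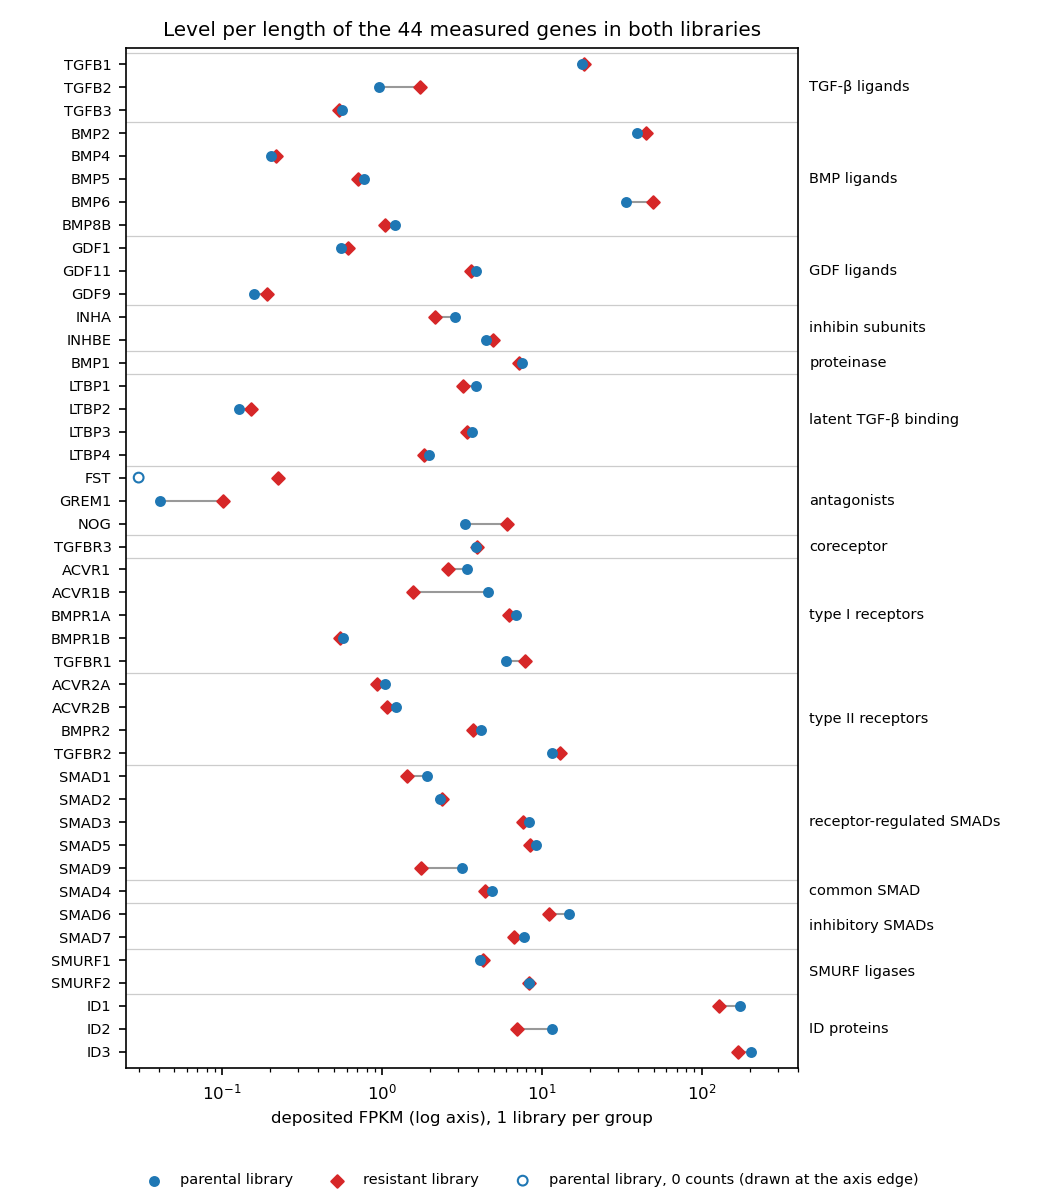
Deposited FPKM (log axis) of the 44 measured genes, grouped by role, in the parental library (circles) and the resistant library (diamonds), 1 library per group and no error bar. ID3 and ID1 were the highest in both libraries, and the longest gap between the libraries among genes with counts in both is that of ACVR1B, from 4.59 to 1.56 FPKM.

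Per length, the family was dominated by its targets and by BMP ligands. In the parental library the deposited FPKM (fragments scaled to gene length and library size) was 205 for ID3 and 174 for ID1, followed by 39.4 for BMP2, 33.4 for BMP6, 17.7 for TGFB1 and 14.8 for SMAD6. The order in the resistant library was ID3 (168 FPKM), ID1 (128 FPKM), BMP6 (49.5 FPKM), BMP2 (45.1 FPKM), TGFB1 (18.3 FPKM) and TGFBR2 (12.9 FPKM). BMP6 and BMP2 thus changed places, with a BMP6 to BMP2 ratio of FPKM of 0.848 in the parental library and 1.10 in the resistant one.

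Of the TGF-β ligands, TGFB1 made up most of the summed FPKM (92.1% in the parental library) and was nearly level. It had 1157 parental and 1111 resistant counts (63.9 and 66.3 CPM, 1.04-fold, interval 0.955 to 1.13). On the opposite strand its exons overlap HNRNPUL1 (7326 and 6245 counts), and its span overlaps AC011462.1 (301 and 0). The strand setting of the counting is not given, so reads shared with these genes cannot be told apart. TGFB2, the isoform best known from development and from mesenchymal cells, had 110 and 185 counts (6.07 and 11.04 CPM), 1.82-fold higher in the resistant library with an interval of 1.43 to 2.32. TGFB2 remained a minor isoform, at 4.99% of the summed FPKM of the TGF-β ligands in the parental library and 8.43% in the resistant one. TGFB3 had 77 and 69 counts (0.969-fold, interval 0.690 to 1.36).

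Both abundant BMP ligands were higher in the resistant library. BMP6, the iron-regulating ligand of the liver, had 1676 parental and 2312 resistant counts (92.5 and 138 CPM), a ratio of 1.49 with an interval of 1.40 to 1.59. BMP2, the osteogenic ligand that pairs with BMP6 in the control of hepcidin, had 2561 and 2728 counts (141 and 163 CPM), a ratio of 1.15 with an interval of 1.09 to 1.22. The intervals of these ratios did not overlap, so in these libraries BMP6 differed by more than BMP2. Together they made up nearly all BMP ligand FPKM, 72.7 in the parental library and 94.5 in the resistant one out of 75.3 and 96.7 for the 10 genes. BMP4, BMP5 and BMP8B were measured at 28 to 131 counts with ratios of 0.866 to 1.08 and intervals that included 1. The exons of BMP8B overlap PPIE (979 and 873 counts) on the opposite strand. BMP8A, a close copy of BMP8B whose reads may be shared with it, had 13 and 6 counts and was not measured, and BMP3, BMP7, BMP10 and BMP15 had 0 counts in both libraries. BMP1, a metalloproteinase that cleaves procollagen and not a ligand of these receptors, was nearly level (1654 and 1473 counts, 0.963-fold).

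Growth and differentiation factors and activin subunits were low or level. GDF11, a ligand of the activin receptors, had 663 and 577 counts (0.941-fold, interval 0.840 to 1.05). Its exons overlap SARNP (1102 and 1267 counts) and AC023055.1 (311 and 14) on the opposite strand, and no source used here gives the strand setting of the counting. The log2 ratio of GDF11 summed with SARNP was 0.17, and that of GDF11 summed with AC023055.1 was -0.59. GDF1, which shares exons with CERS1, had 25 and 26 counts, and GDF9, an oocyte factor, 16 and 18. The exons of GDF9 overlap UQCRQ (1578 and 1375 counts) on the opposite strand, so its few counts may be shared with that gene. GDF3 (4 and 0 counts) and GDF5 (2 and 2) were not measured, and GDF2, GDF6, GDF7 and GDF10 were at 0. Neither measured inhibin or activin subunit differed beyond counting error. INHBE, a liver activin subunit, had 426 and 439 counts (1.11-fold, interval 0.973 to 1.28). INHA, the inhibin alpha subunit, had 109 and 76 counts (0.754-fold, interval 0.555 to 1.02). INHBB (0 and 1 count), INHBC (0 and 2) and INHBA (0 in both) were not measured, so the subunits of activin A and activin B were not detected above the floor of 3 counts.

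The antagonists did not all differ in the same direction. NOG, FST and GREM1 were higher in the resistant library, while NBL1, an antagonist outside the matched symbols that is described further on, was 2.63-fold lower and had more counts (804 and 283). NOG, which encodes noggin, a protein that binds BMP ligands and blocks their receptor contacts, had 113 parental and 192 resistant counts (6.24 and 11.5 CPM), 1.84-fold higher with an interval of 1.45 to 2.34. FST, which encodes the activin-binding protein follistatin, had 0 and 21 counts (1.25 CPM in the resistant library). It was 7.57-fold higher when the parental library is set to the floor of 3 counts. That value leaves out the counting error of the 21 counts and is not a lower limit. The counting interval of the FST ratio, which includes this error, begins at 5.63. GREM1, which encodes the BMP antagonist gremlin, had 13 and 30 counts (0.717 and 1.79 CPM), 2.49-fold higher with an interval of 1.26 to 5.21. FST and GREM1, like GDF9 above, passed the filter on low values only through the resistant library, so their number gives no support. Per length NOG stayed below the ligands: the ratio of BMP2 to NOG in FPKM was 11.9 in the parental library and 7.47 in the resistant one, and that of BMP6 to NOG 10.1 and 8.20. In a bulk library, more or fewer cells that express such a gene and more or less RNA per cell cannot be told apart.

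The proteins that hold TGF-β in latent form differed little. LTBP1, which ties latent TGF-β to the matrix, had 956 and 737 counts (0.833-fold, interval 0.756 to 0.918). LTBP3 and LTBP4 had ratios of 0.939 and 0.936 with intervals that included 1, and LTBP2 had only 29 and 32 counts.

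**Figure D2:**
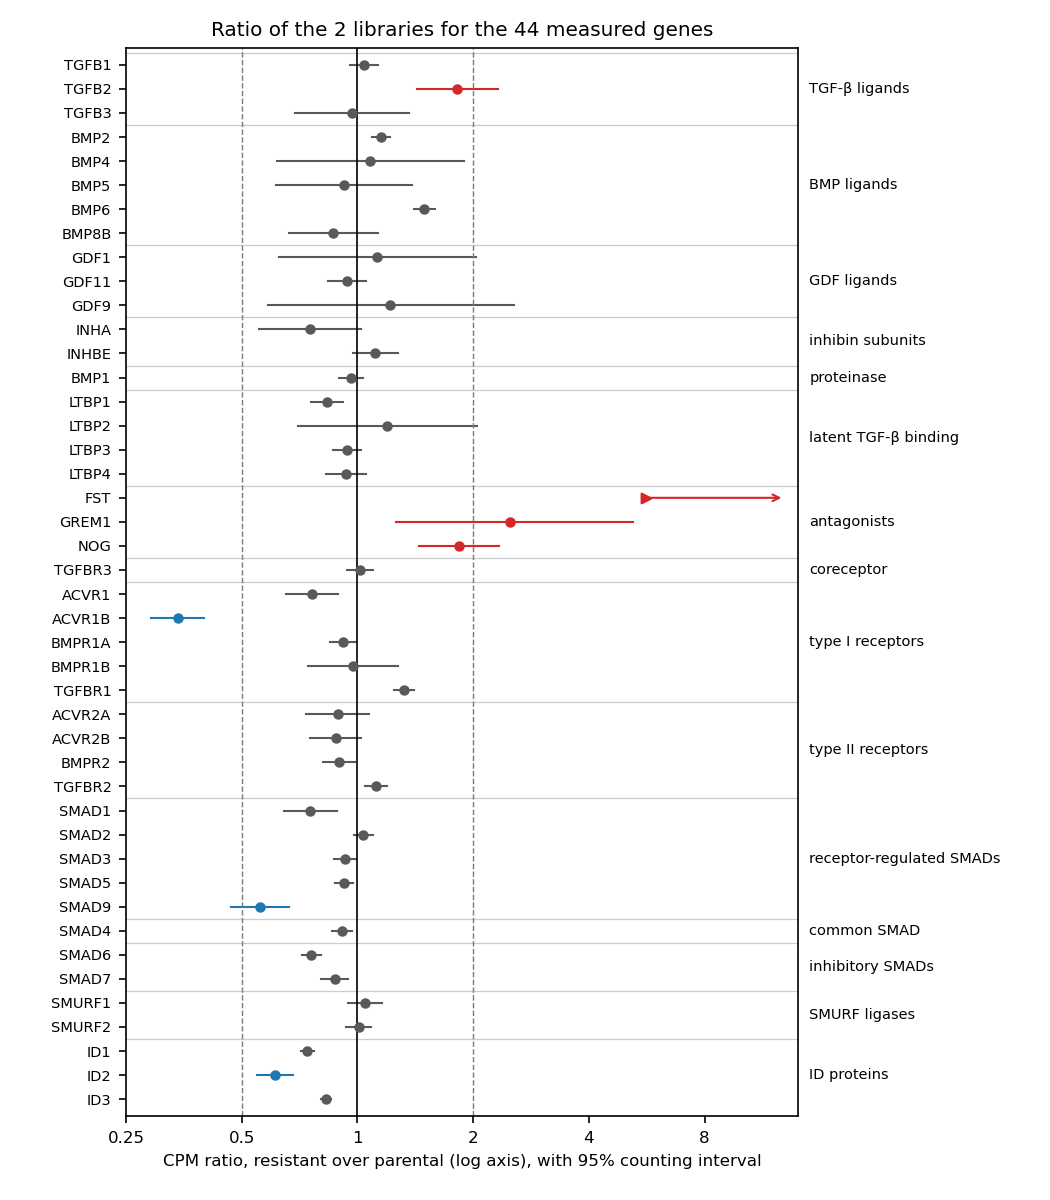
Ratio of CPM, resistant over parental (log axis), of the 44 measured genes grouped by role, with 95% counting intervals, 1 library per group. Red points are past 1.5-fold higher and blue points past 1.5-fold lower on the log2 ratio of CPM + 1, dashed lines stand at 0.5 and 2, and the arrow for FST, with 0 parental counts, starts at the lower limit of its interval, 5.63. ACVR1B lies farthest to the left, and the 3 ID genes also lie to the left of 1.

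Among type I receptors, 2 that feed the same SMADs lay on opposite sides of 1. ACVR1B, the activin receptor ALK4, had 655 parental and 207 resistant counts (36.1 and 12.3 CPM), 2.93-fold lower in the resistant library with a ratio of 0.342 and an interval of 0.291 to 0.400. TGFBR1, the TGF-β receptor ALK5, had 1933 and 2369 counts (107 and 141 CPM), a ratio of 1.32 with an interval of 1.25 to 1.41. Per length, ACVR1B stood at 0.775 of TGFBR1 in the parental library and at 0.200 in the resistant library, and its rank by FPKM among the family moved from 17 to 31. ACVR1B spans chr12:51951667-51997078 on the plus strand of GRCh38, and no other gene of the table overlaps it. It was past 2-fold lower under each of the alternative settings tried. The authors' deposited table, made from the same pair of libraries, lists ACVR1B as DOWN with a log2 fold change of -1.56 and FST as UP, and calls no other of the 50 genes of the family that it compares.

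The other type I receptors were slightly lower or level. ACVR1, the BMP and activin receptor ALK2, had 406 and 286 counts (22.4 and 17.1 CPM, 0.761-fold, interval 0.652 to 0.888). BMPR1A, the BMP type I receptor with the highest FPKM here, had 1415 and 1198 counts (0.915-fold, interval 0.847 to 0.989), and BMPR1B 120 and 108 counts (0.973-fold, interval 0.743 to 1.27). ACVRL1, the endothelial receptor ALK1, had 0 and 5 counts and ACVR1C, the receptor ALK7, 0 and 2, and neither was measured.

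Type II receptors were within a narrow range. TGFBR2, which binds TGF-β, had 1639 and 1695 counts (90.5 and 101 CPM, 1.12-fold, interval 1.04 to 1.20). BMPR2, the BMP type II receptor, had 915 and 759 counts (0.897-fold, interval 0.813 to 0.988). ACVR2A and ACVR2B, the activin type II receptors, had ratios of 0.889 and 0.878 with intervals that included 1. The exons of ACVR2A overlap ORC4 (1040 and 961 counts) on the opposite strand. TGFBR3, the coreceptor betaglycan, was level at 1288 and 1211 counts (1.02-fold, interval 0.939 to 1.10). Both TGF-β receptor kinases were thus slightly higher in the resistant library, and the measured receptors of BMPs and activins were lower or within counting error of 1.

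Among receptor-regulated SMADs, SMAD9 and SMAD1 were lower in the resistant library, and SMAD5, SMAD2 and SMAD3 were close to level. SMAD9, also called SMAD8, a BMP-branch SMAD that is itself a BMP target, had 391 and 202 counts (21.6 and 12.1 CPM), 1.79-fold lower with a ratio of 0.558 and an interval of 0.469 to 0.664. SMAD1 had 386 and 269 counts (21.3 and 16.05 CPM, 0.753-fold, interval 0.642 to 0.882). SMAD5, the most abundant of the branch per length, had 2769 and 2360 counts (0.921-fold, interval 0.872 to 0.974). The summed counts of SMAD1, SMAD5 and SMAD9 were 3546 and 2831, a ratio of 0.863 with an interval of 0.821 to 0.907. SMAD2 and SMAD3, of the TGF-β branch, had together 4383 and 4012 counts, a ratio of 0.989 with an interval of 0.948 to 1.03. Alone, SMAD2 had 2427 and 2328 counts (1.04-fold, interval 0.979 to 1.10) and SMAD3 1956 and 1684 (0.931-fold, interval 0.871 to 0.994). SMAD4, the partner of both branches, had 2244 and 1893 counts (0.912-fold, interval 0.857 to 0.970).

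The negative regulators inside the cell were lower or level. SMAD6, an inhibitory SMAD that acts mainly on the BMP branch, had 2949 and 2067 counts (162.7 and 123.3 CPM, 0.758-fold, interval 0.716 to 0.802). SMAD7, which blocks both branches, had 1317 and 1063 counts (0.872-fold, interval 0.804 to 0.947). The ubiquitin ligases SMURF1 and SMURF2, which mark SMADs and receptors for degradation, were level, with 747 and 723 counts (1.05-fold) and 1397 and 1301 counts (1.01-fold). SMURF2 was the 1 gene of the 44 whose sign depended on the setting. Its exons overlap CEP95 (776 and 774 counts) on the opposite strand.

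All 3 measured ID genes were lower in the resistant library, by amounts that differed beyond counting error. ID proteins lack a DNA-binding region and hold back basic helix-loop-helix factors. ID2 had 923 parental and 522 resistant counts (50.9 and 31.1 CPM, 0.611-fold, interval 0.548 to 0.681). ID1, the textbook BMP target, had 6993 and 4796 counts (386 and 286 CPM, 0.741-fold, interval 0.714 to 0.769). ID3 had 10220 and 7833 counts (564 and 467 CPM, 0.828-fold, interval 0.804 to 0.853). The 3 intervals do not overlap, so ID2 had the lowest ratio of the 3 and ID3 the highest in this pair of libraries. ID4 had 0 counts in both. ID2 overlaps the antisense gene ID2-AS1, which had 26 and 25 counts. The summed counts of ID1, ID2 and ID3, 18136 and 13151, gave a ratio of 0.784 with an interval of 0.766 to 0.802, close to the 0.793 (0.757 to 0.831) of SMAD6 and SMAD7 together, while BMP2 and BMP6 together had a ratio of 1.29 (1.23 to 1.34). Transcripts of the abundant BMP ligands were thus higher and those of these targets lower in the same library.

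Other BMP targets, from a list of 30 genes, were also mostly lower. This list, like the others, was chosen with earlier results of these data known, so its counts give no independent support. Of its 21 measured genes, 5 had a positive and 16 a negative log2 ratio, with a median of -0.40 beside -0.0018 for all measured genes, and 3 were past 1.5-fold higher and 6 lower (14.3% and 28.6%, against 4.84% and 3.81% of all measured genes). Of these 21, 8 are genes of the family already described. Without them, 13 were measured, with 3 positive and 10 negative ratios and a median of -0.43. Past 2-fold were 1 higher and 2 lower (7.69% and 15.4%, against 1.31% and 0.994% of all measured genes). Past 1.5-fold were 1 higher and 4 lower (7.69% and 30.8%). In the full list, among genes with a larger CPM of at least 10, 0 were past 2-fold higher and 1 lower, beside 117 and 90 of all genes. At 1.5-fold, 1 of these was higher and 5 lower, beside 349 and 277 of all genes. Shares at this filter are not given, so these counts only show how the list depends on low values. DLX2, a homeobox gene induced by BMPs, had 173 parental and 53 resistant counts, 3.02-fold lower (interval 2.21 to 4.19). DLX3, another of that family, had 221 and 90 counts, 2.27-fold lower (interval 1.77 to 2.94). ATOH8, a basic helix-loop-helix factor that responds to BMP6 in the liver, had 786 and 379 counts, 1.92-fold lower (interval 1.70 to 2.17). The 3 genes of the list past 1.5-fold higher were NOG and GREM1, described above, and RUNX2, the osteoblast factor, with 31 and 91 counts, 3.17-fold higher (interval 2.09 to 4.94). HAMP, which encodes hepcidin and is the best known BMP6 target in hepatocytes, had 2 and 0 counts. The part of BMP signalling in the levels of these targets was not tested.

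TGF-β targets, from a list of 48 genes, had a median slightly above that of all genes. Of 39 measured genes, 26 had a positive and 13 a negative log2 ratio, with a median of 0.12, and 3 were past 2-fold higher and 1 lower (7.69% and 2.56%, against 1.31% and 0.994% of all measured genes). At 1.5-fold, 6 were higher and 1 lower (15.4% and 2.56%, against 4.84% and 3.81%). CCN2, a matrix-associated growth factor, had 370 and 940 counts, 2.75-fold higher (interval 2.43 to 3.11). IL11, a cytokine, had 38 and 109 counts, 3.10-fold higher (interval 2.13 to 4.61). LBH, a transcription cofactor, had 50 and 13 counts, 3.56-fold lower (interval 1.90 to 7.14). It is the 1 gene counted as lower, and it passed the filter only through the parental library. Common readouts of the branch did not share a direction. PMEPA1, a feedback inhibitor, was level at 1804 and 1683 counts (1.01-fold, interval 0.943 to 1.08). TGFBI, a secreted matrix protein, had 2645 and 2776 counts (1.13-fold, interval 1.08 to 1.20). SKIL (0.793-fold, interval 0.744 to 0.845) and SMAD7 (0.872-fold, interval 0.804 to 0.947), which are also in the list, were lower. CCN2 and THBS1 are also targets of other pathways, and the part of TGF-β in their levels was not tested.

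**Figure D3:**
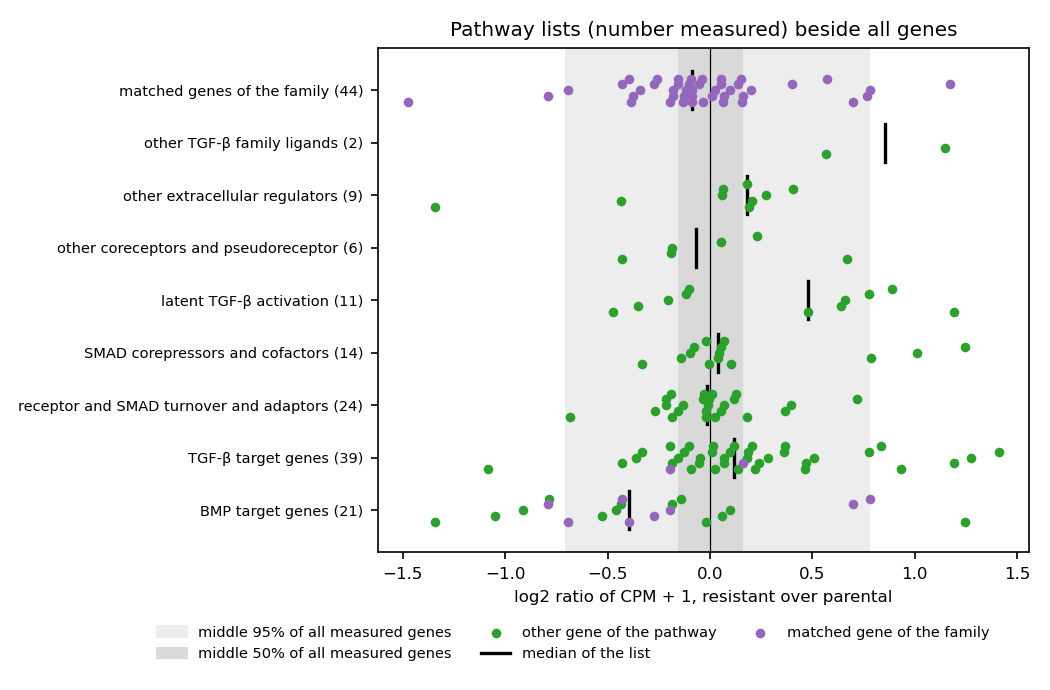
Log2 ratio of CPM + 1, resistant over parental, of each measured gene in the family and in 8 lists of pathway genes, with the list's median as a black bar and the middle 50% and 95% of all measured genes as grey bands. The median of the BMP targets lies at -0.40 and that of the TGF-β targets at 0.12, and purple points mark genes of the family within these lists.

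Among 16 genes that release, store or activate latent TGF-β, 11 were measured. Of the 11, 5 were past 1.5-fold higher and 0 lower (45.5% and 0.00%, against 4.84% and 3.81% of all measured genes). Of these 5, MMP14 and ITGB3 passed the filter only through the resistant library. THBS1 and ITGB6 were also counted among the TGF-β targets past 1.5-fold higher, so the 2 lists are not separate observations. The median log2 ratio of the 11 was 0.48, with 6 positive and 5 negative. It turned to -0.10 among genes with a larger CPM of at least 10, where 3 were past 1.5-fold higher, beside 349 of all genes. THBS1, which encodes thrombospondin 1, an activator of latent TGF-β, had 775 and 1661 counts (42.8 and 99.1 CPM), 2.32-fold higher (interval 2.13 to 2.53). ITGB6, the beta subunit of an integrin that frees TGF-β, had 362 and 585 counts, 1.75-fold higher (interval 1.53 to 1.997). MMP14, a membrane metalloproteinase, had 8 and 28 counts (3.78-fold, interval 1.68 to 9.61) and ITGB3, an integrin beta subunit, 5 and 17 (3.68-fold, interval 1.302 to 12.7).

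Ligands and extracellular regulators outside the family as chosen gave single differences. AMH, which encodes anti-Müllerian hormone, had 137 and 301 counts, 2.37-fold higher (interval 1.93 to 2.93), and GDF15, a stress-induced cytokine of the superfamily, 361 and 503 counts, 1.51-fold higher (interval 1.31 to 1.73). They were the only measured genes of 7 further ligands. NBL1, a DAN-family BMP antagonist, had 804 and 283 counts, 2.63-fold lower (interval 2.29 to 3.02). Its reads may be shared with the read-through gene MICOS10-NBL1, which had 50 and 15. Of the 9 measured regulators NBL1 was the only one past 1.5-fold. That is 11.1%, against 3.81% of all measured genes on the lower side and 8.65% on either side. BMPER, a modulator of BMP activity, had 358 and 241 counts (0.728-fold), FSTL1, an abundant follistatin-like protein, 6256 and 7677 (1.33-fold) and FSTL3, an activin-binding relative of follistatin, 4559 and 4399 (1.04-fold). DCN, a small matrix proteoglycan that binds TGF-β, had 87 and 101 counts (1.25-fold, interval 0.933 to 1.69).

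Coreceptors were mixed. Of 6 measured genes of 10, 1 was past 1.5-fold higher and 0 lower (16.7%, against 4.84% and 3.81% of all measured genes). This was NRP1, a neuropilin, with 72 and 116 counts (1.74-fold, interval 1.29 to 2.37). Its relative NRP2 had 583 and 396 counts (0.734-fold, interval 0.645 to 0.836), RGMB, a BMP coreceptor, 367 and 401 (1.18-fold), and NEO1, the receptor of RGM proteins, 26 and 19. ENG, the coreceptor endoglin, was level at 867 and 834 counts (1.04-fold), and BAMBI, a pseudoreceptor that blocks signalling, had 437 and 353 (0.873-fold, interval 0.757 to 1.01).

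Nuclear partners and adaptors of SMADs were mostly level. Of 14 measured corepressors and cofactors of 16, 2 were past 2-fold higher and 0 lower (14.3%, against 1.31% and 0.994% of all measured genes), with a median of 0.04. With DESeq2 size factors 1 remained past 2-fold higher, since TGIF2 lay close to the rule (log2 ratio 1.01). These were RUNX2 and TGIF2, a corepressor of SMADs with 340 and 652 counts (2.07-fold, interval 1.82 to 2.37). TGIF2 shares its locus with the read-through gene TGIF2-RAB5IF, which had 17 and 1 counts. RUNX3, a SMAD-binding transcription factor that passed the filter only through the resistant library, had 3 and 17 counts (6.13-fold, interval 1.77 to 32.6), and SKIL, a corepressor that TGF-β induces, 2316 and 1699 (0.793-fold, interval 0.744 to 0.845). Of 24 measured turnover and adaptor genes of 25, 1 was past 1.5-fold higher and 1 lower (4.17% each, against 4.84% and 3.81% of all measured genes), with a median of -0.01. DAB2, an endocytic adaptor of TGF-β receptors, had 2675 and 4078 counts (1.65-fold, interval 1.57 to 1.73), and ZFYVE16, or endofin, an endosomal SMAD adaptor, 1279 and 730 (0.617-fold, interval 0.563 to 0.676). STUB1, a ubiquitin ligase whose targets include SMAD3, had 416 and 511 counts (1.33-fold) and overlaps JMJD8 and MSLN, and NEDD4L, another ligase, 1170 and 1401 (1.29-fold).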

How the data were processed

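mRNA of 2 cultures labelled HepG2, 1 as parental and 1 as sorafenib resistant, was sequenced by the authors, who deposited raw counts and FPKM per gene. The submitters' processing notes name bcl2fastq 2.19, HISAT2 2.0.4, StringTie 1.3.0 and GRCh38, and none of these sources gives the strand setting. The deposited FPKM was used for levels between genes. The authors' deposited log2 fold changes and their p-values and q-values come from 1 library against 1 and were used only to report their calls.

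Counts were scaled to CPM with TMM factors (edgeR 4.0.16, R 4.3.3; 1.003 for parental and 0.997 for resistant), and no model was fitted. Log2 ratios used a pseudocount of 1 CPM, and a gene was measured where the larger CPM was at least 1. Ratios carry exact Clopper-Pearson 95% intervals, which cover counting error only, and the floor is 3 counts per library (0.166 and 0.179 CPM). The scripts were tested on simulated data. DESeq2 1.42.0 gave size factors as an alternative.

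Every matched gene is described, except that some items are not reported here. Of each other list, up to 4 measured genes with the largest absolute log2 ratio are named, and TGFBI, SKIL, PMEPA1, GDF15, ENG, BAMBI, HAMP, FSTL1 and FSTL3 whatever their values. Overlapping partner genes and the single marker genes were named after their values were seen. The members and lists were chosen with earlier results of these data known. Promoter letters were searched in the 250 bases before each RefSeq start (53 of 62 genes matched by symbol).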

Additional observations from a re-analysis of the deposited data

How the results depend on the processing

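Over 8 alternatives (DESeq2 size factors, total counts, a pseudocount of 0.1 or 5 CPM, no filter, a larger CPM of at least 10, the deposited FPKM with a pseudocount of 1, and leaving out genes that overlap another) the median log2 ratio of the family stayed between -0.10 and -0.03, and 43 of 44 genes kept their sign. The genes past 2-fold higher numbered 2 with a pseudocount of 0.1 CPM and 0 with a pseudocount of 5 CPM, with the larger CPM at least 10 and with FPKM. Those past 1.5-fold higher numbered 0 with a pseudocount of 5 CPM, 2 with the larger CPM at least 10, 1 with FPKM and 2 without overlapping genes, and those past 1.5-fold lower numbered 1 without overlapping genes, which leaves fewer genes. The log2 ratio of ACVR1B ranged from -1.54 to -1.13, that of FST from 0.29 to 3.76, that of NOG from 0.55 to 0.87 and that of BMP6 from 0.55 to 0.58. Over all measured genes, 192 were past 2-fold higher and 146 lower, against 431 and 315 with a pseudocount of 0.1 CPM, 83 and 68 with 5 CPM, 117 and 90 with the larger CPM at least 10, 75 and 71 with FPKM, and 69 and 42 without overlapping genes. Past 1.5-fold, all measured genes fell from 711 higher and 559 lower to 302 and 231 with a pseudocount of 5 CPM. They fell to 349 and 277 with the larger CPM at least 10, 341 and 258 with FPKM, and 215 and 188 without overlapping genes. Low counts limit FST, GREM1, MMP14, ITGB3 and RUNX3. No paired analysis was possible because each group has 1 library.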
